A study of Mus musculus with 11 samples.

Results

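The genes described here are 10 markers and targets of Wnt signalling at the base of the intestinal crypt: Lgr5, Ascl2, Olfm4, Smoc2, Axin2, Nkd1, Znrf3, Rnf43, Myc and Sox9. Their members on the array are the 21 probe sets that the platform annotation assigns to exactly 1 of these symbols, out of 45037 probe sets other than controls, and the 10 genes are 10 of 18193 genes tested. Nkd1 had 4 probe sets, Ascl2 and Sox9 had 3 each, Lgr5, Axin2, Smoc2 and Znrf3 had 2 each, and Myc, Olfm4 and Rnf43 had 1 each. Expression was measured as signal, a linear fluorescence intensity per probe set, in whole colon of adult C57BL/6 mice. The 3 control arrays came from colon taken before imatinib, 4 arrays from colon 3 h after the injection and 4 from colon 12 h after it. Imatinib is a tyrosine kinase inhibitor that acts on Abl, Kit and PDGF receptor kinases, and the series title places the work in signalling from Eph receptors to Abl in intestinal tumours. No vehicle group and no control taken at a matched hour was analysed here. In the comparisons with control the effects of drug, injection and hour of harvest therefore cannot be told apart. The 12 h and 3 h samples differ in time since the injection and may differ in hour of harvest. That comparison therefore does not isolate an effect of the drug over time either. The labels do not say that replicates were separate mice, so p-values measure only the spread between these samples, and with so few arrays the precision of each value is limited.

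Wnt ligands stop the destruction of beta-catenin, which then binds TCF and LEF factors on DNA and switches on target genes. In the colon this signal is strongest at the crypt base, where it keeps Lgr5-expressing stem cells dividing, and it fades towards the lumen as cells differentiate. R-spondins bind receptors of the Lgr family and clear the ubiquitin ligases Znrf3 and Rnf43, which otherwise remove the Wnt receptors from the cell surface. Axin2 and Nkd1 are feedback inhibitors inside the cell, and Myc and Sox9 are transcription factors that carry part of the crypt programme.

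Colon was recognisable on all 11 arrays, with signals of 4933 to 9844 for Car1, a colonocyte carbonic anhydrase, 6116 to 10870 for the goblet cell mucin Muc2, and 4187 to 6023 for the epithelial adhesion gene Epcam. Some arrays stood apart by other tissue. The summed signal of 14 measured pancreatic acinar markers was 114787 on control replicate 1 and 29754 on 3 h replicate 3. It was 90646, 68589 and 32277 on 12 h replicates 1, 3 and 4, against 2417 to 4359 on the other 6 arrays. At 3 h and 12 h against control and between the times, their median log2 changes were -1.71, 1.96 and 3.74. Of the 14, 0, 14 and 14 were above 0, so this tissue was spread unevenly over the groups. The arrays within each group also differed widely, and none of the 14 was called in any comparison (limma, with 0, 0 and 1 at an unadjusted p under 0.05). Results are therefore also given without these 5 arrays, an alternative chosen after seeing the data that left 2 control arrays, 3 arrays at 3 h and 1 array at 12 h. In bulk colon, fewer crypt base cells and less RNA per cell cannot be told apart.

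The start regions of 5 of the 10 genes (Ascl2, Axin2, Nkd1, Olfm4 and Rnf43, the last with 2 of them) were found in the RefSeq promoter table for GRCm38.p6, each reaching from 250 bases before to 50 bases after the start used there. Those of Axin2 and Olfm4 are printed because the brightest Axin2 probe set was above background on every array and the Olfm4 probe set on none, as described below. Capitals mark each CpG. The Axin2 region lies at chr11:108920099-108920398 on the plus strand and the Olfm4 region at chr14:80000052-80000351 on the plus strand. The Axin2 and Nkd1 regions lie inside their genes, whose RefSeq spans start at 108917828 and 88521342. The second Rnf43 region starts at 87699647 and also lies inside its gene, whose span starts at 87663087. These regions are therefore not those of the outermost annotated starts.
Axin2: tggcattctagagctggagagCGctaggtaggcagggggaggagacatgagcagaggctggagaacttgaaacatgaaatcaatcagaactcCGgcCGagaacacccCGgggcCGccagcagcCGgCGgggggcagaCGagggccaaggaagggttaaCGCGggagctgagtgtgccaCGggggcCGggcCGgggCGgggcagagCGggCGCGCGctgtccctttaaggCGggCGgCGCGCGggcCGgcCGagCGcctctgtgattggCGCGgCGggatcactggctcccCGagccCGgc
Olfm4: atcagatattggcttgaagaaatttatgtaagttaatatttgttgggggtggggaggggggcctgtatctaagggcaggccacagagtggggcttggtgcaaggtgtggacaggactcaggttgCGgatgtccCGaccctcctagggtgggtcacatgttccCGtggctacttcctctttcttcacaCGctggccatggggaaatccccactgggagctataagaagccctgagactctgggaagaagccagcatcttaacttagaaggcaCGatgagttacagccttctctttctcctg
The Axin2 region held 31 CpG dinucleotides at 70.0% GC and the Olfm4 region 5 at 52.3% GC. The median over all 32851 regions of the table was 7, with quartiles of 3 and 20. The other regions held 23 CpG dinucleotides in Ascl2, 6 in Nkd1, and 10 and 3 in the 2 regions of Rnf43. Each was searched on both strands for 4 words that TCF and LEF factors bind (the word CTTTGAA, the word CTTTGAT, the word CTTTGTA and the word CTTTGTT), which can overlap one another only across strands. None of the 6 regions held a word, and 16.9% of all regions held at least 1. With so few and such short regions, finding none says little about TCF and LEF sites at these genes.

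Of the 10 genes, Myc rose at 3 h and the other 9 did not pass the test then. No member passed at 12 h against control, and Myc fell at 12 h against 3 h. These counts were 1 of 10, 0 of 10 and 1 of 10 (limma, Benjamini-Hochberg adjusted p under 0.05 over all genes), while 2.54%, 1.63% and 4.07% of all 18193 genes were called in the same comparisons. With 10 members, 1 call is a statement about Myc and not about the set. The log2 changes of the members had medians of 0.04, 0.08 and 0.13, beside -0.02, -0.01 and 0.01 over all genes, and 5, 5 and 6 of the 10 were above 0. The arrays of the 2 groups did not overlap for 2, 1 and 2 members, while 15.3%, 13% and 11.6% of all genes were separated in this way. Unadjusted p was under 0.05 for 3, 1 and 3 members and for 2735, 2883 and 3231 of all genes. The comparisons share arrays, since both time points are set against the same controls.

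**Figure D1:**
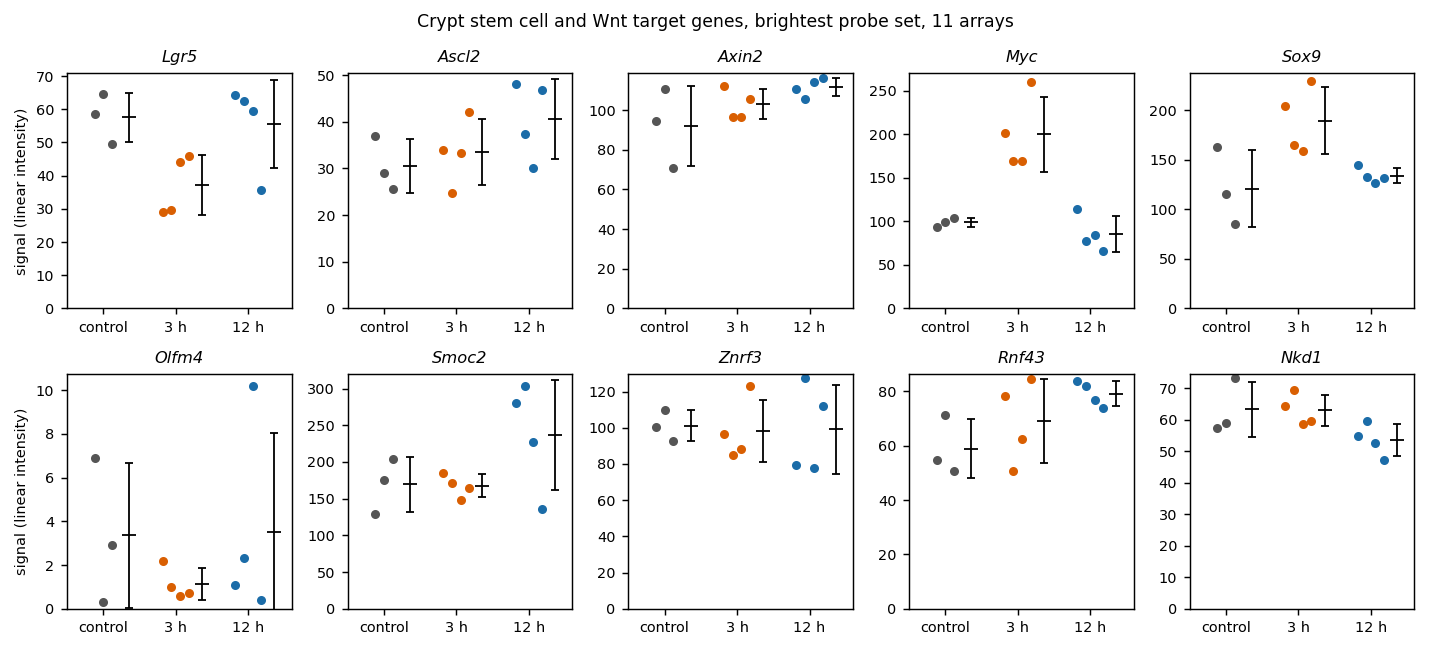
Signal of the brightest probe set of each of the 10 genes on the control, 3 h and 12 h arrays, linear intensity on axes that start at 0. Points are arrays and bars are mean ± SD. The 3 h arrays of Myc, from 169.3 to 260.6, lie above all other arrays, those of Lgr5 lie below the controls, and Olfm4 stays at or below 10.2 everywhere.

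Lgr5, the R-spondin receptor that marks crypt base stem cells, had its 4 arrays at 3 h below all 3 controls, but did not pass the test. Its brightest probe set had signals of 58.5, 64.5 and 49.6 in control, 29.0, 29.7, 44.0 and 45.9 at 3 h, and 64.2, 62.5, 59.6 and 35.8 at 12 h. The 3 h and control arrays did not overlap, and 3 of the 4 arrays at 12 h lay within the control range while replicate 4 lay below it. The mean was 37.2 ± 9.04 at 3 h (SD, n = 4) against 57.5 ± 7.50 in control (SD, n = 3), a log2 difference of -0.48 ± 0.17 (SE, 95% interval -0.86 to -0.10; limma adjusted p = 0.196). Over the 11 fits that leave out 1 array the change was -0.56 to -0.40, with a lowest adjusted p of 0.102 (limma). The change was -0.53 without the arrays high in pancreatic transcripts.

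At 12 h Lgr5 averaged 55.5 ± 13.3 (SD, n = 4), a log2 difference of -0.06 ± 0.17 against control (SE, 95% interval -0.43 to 0.32) and of 0.42 ± 0.16 against 3 h (SE; limma adjusted p = 0.186). Without 12 h replicate 4 the change against 3 h was 0.57 and passed the test (limma adjusted p = 0.0429). The second probe set of Lgr5 had signals of 1.3 to 11.3 over all arrays, below the offset of 16 that was added before the log on each of them, and its change at 3 h was 0.09 ± 0.17 (SE).

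Ascl2, a transcription factor that sets stem cell identity in the crypt, did not pass the test in any comparison. Its signals were 37.0, 29.1 and 25.6 in control, 34.0, 24.7, 33.4 and 42.1 at 3 h, and 48.2, 37.3, 30.0 and 46.9 at 12 h. The groups overlapped, with 3 of the 4 arrays at 12 h above the highest control array. The log2 change was 0.09 ± 0.15 at 3 h and 0.28 ± 0.15 at 12 h against control (SE, 95% interval of the second -0.05 to 0.61; limma adjusted p = 0.423). Its dimmer probe sets, below the offset on 7 and 8 of the 11 arrays, gave 0.32 and 0.38 at 12 h, of which the second has probes shared between transcripts, as does the brightest.

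Smoc2, a secreted matrix protein of the Lgr5 stem cell signature, varied more than most genes. Its signals were 129.6, 176.0 and 203.5 in control, 185.2, 171.5, 147.7 and 165.1 at 3 h, and 280.4, 303.8, 227.1 and 135.9 at 12 h. Replicates 1, 2 and 3 at 12 h lay above all control and 3 h arrays, and replicate 4 was lower than all but 1 control array. The residual SD of 0.34 on the log2 scale lay at percentile 91.1 of all genes. Smoc2 averaged 236.8 ± 74.5 at 12 h against 167.4 ± 15.6 at 3 h (SD, n = 4 each), a log2 difference of 0.41 ± 0.21 (SE; limma adjusted p = 0.342).

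The second Smoc2 probe set ran the same way between the time points, with 100.1, 113.2, 57.8 and 54.6 at 12 h against 57.9, 33.4, 40.2 and 42.2 at 3 h. The groups overlapped, since 3 h replicate 1 lay just above 12 h replicates 3 and 4, and the log2 change was 0.68 ± 0.20 (SE; limma adjusted p = 0.131 over probe sets). Leaving out 12 h replicate 4 brought the brightest probe set to 0.64 (limma adjusted p = 0.0421), so 1 array set the call of Smoc2 as it did that of Lgr5. Against control the log2 change of Smoc2 was 0.41 ± 0.23 at 12 h and -0.00 ± 0.23 at 3 h (SE), neither past the test.

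Olfm4, a secreted glycoprotein that marks stem cells of the small intestine in mice, was at background. Its single probe set had signals of 6.9, 0.3 and 2.9 in control, 2.2, 1.0, 0.6 and 0.7 at 3 h, and 1.1, 2.3, 10.2 and 0.4 at 12 h. The value was below the offset on 11 of 11 arrays. Its log2 changes of -0.16 at 3 h and -0.00 at 12 h against control, and of 0.16 between them, are differences between values at background.

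Axin2, the scaffold of the beta-catenin destruction complex and a widely used Wnt target gene, did not pass the test. Its signals were 94.7, 110.5 and 70.8 in control, 112.3, 96.7, 96.7 and 105.6 at 3 h, and 110.7, 105.6, 114.2 and 116.1 at 12 h. The groups overlapped, with control replicate 3 below every other array and the arrays at 12 h within 105.6 to 116.1. Means were 102.8 ± 7.58 at 3 h (SD, n = 4) and 92.0 ± 19.99 in control (SD, n = 3), a log2 difference of 0.15 ± 0.12 (SE, 95% interval -0.11 to 0.42). At 12 h the mean of 111.7 ± 4.61 (SD, n = 4) gave 0.26 ± 0.12 against control (SE, 95% interval -0.01 to 0.53; limma adjusted p = 0.337). The interval at 12 h excludes a rise beyond 1.44-fold on the log2(signal + 16) scale. The second probe set was below the offset on 9 of 11 arrays and gave -0.20 ± 0.22 at 3 h and -0.23 ± 0.22 at 12 h (SE).

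Rnf43, a membrane ubiquitin ligase that removes Frizzled receptors, was higher on every array at 12 h than on every control array and did not pass the test. It had signals of 54.8, 71.3 and 50.6 in control, 78.3, 50.6, 62.4 and 84.7 at 3 h, and 83.7, 81.9, 76.8 and 73.8 at 12 h. The lowest array at 12 h was just above the highest control array, and the 3 h arrays covered both ranges. The mean was 79.1 ± 4.56 at 12 h (SD, n = 4) against 58.9 ± 10.9 in control (SD, n = 3), a log2 difference of 0.35 ± 0.15 (SE, 95% interval 0.03 to 0.67; limma adjusted p = 0.265). It was 0.36 without the arrays high in pancreatic transcripts, and at 3 h it was 0.17 ± 0.15 (SE).

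Znrf3, the partner ligase of Rnf43, had log2 changes of -0.05 ± 0.17 at 3 h and -0.05 ± 0.17 at 12 h against control (SE, 95% intervals -0.41 to 0.32 and -0.41 to 0.31). Its signals were 100.6, 109.9 and 92.8 in control, 96.6, 84.8, 88.2 and 123.2 at 3 h, and 79.3, 127.3, 77.7 and 112.2 at 12 h. Arrays of the same group differed more than the group means, which were 101.1, 98.2 and 99.1. A second probe set stayed below the offset on 11 of 11 arrays.

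Nkd1, which binds Dishevelled and dampens Wnt signalling, was the steadiest member, with a residual SD of 0.12 at percentile 13.3 of all genes. It had signals of 57.5, 59.0 and 73.4 in control, 64.4, 69.5, 58.6 and 59.7 at 3 h, and 54.8, 59.5, 52.6 and 47.3 at 12 h. The groups overlapped by 1 array or more, with 3 of the 4 arrays at 12 h below the lowest control array. The log2 change was -0.00 ± 0.11 at 3 h and -0.19 ± 0.11 at 12 h against control (SE, 95% interval of the second -0.42 to 0.04; limma adjusted p = 0.444). The other 3 probe sets gave -0.02, 0.11 and 0.30 at 3 h and -0.05, 0.02 and 0.34 at 12 h, so the small change at 12 h was not shared between them.

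Myc, a transcription factor that drives growth and ribosome production, was the member that passed the test. Its signals were 93.4, 99.5 and 104.1 in control, 202.1, 169.6, 169.3 and 260.6 at 3 h, and 113.9, 77.8, 84.4 and 65.8 at 12 h. Every array at 3 h lay above every control array and every array at 12 h, and the arrays at 12 h lay on both sides of the control range. The mean was 200.4 ± 43.0 at 3 h (SD, n = 4) against 99.0 ± 5.37 in control (SD, n = 3), a 1.86-fold rise on the log2(signal + 16) scale (log2 change 0.89 ± 0.17 SE, 95% interval 0.52 to 1.26; limma adjusted p = 0.0181). In the fit over probe sets the same change had a limma adjusted p of 0.0361, and it was 1 call among the 21 probe sets, where 0.961% of all probe sets were called.

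At 12 h Myc averaged 85.5 ± 20.5 (SD, n = 4), 2.13-fold lower than at 3 h (log2 change -1.09 ± 0.16 SE, 95% interval -1.44 to -0.75; limma adjusted p = 0.00265). It was again 1 call among the 21 probe sets (limma adjusted p = 0.00603), where 1.74% of all probe sets were called. Against control the change at 12 h was -0.20 ± 0.17 (SE; limma adjusted p = 0.645), and none of the 21 probe sets was called there, with 1 at an unadjusted p under 0.05, where 0.486% of all probe sets were called.

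The call of Myc between 12 h and 3 h held with each of the 11 arrays left out (limma adjusted p up to 0.011). The call at 3 h was lost without control replicate 1 (limma adjusted p = 0.0855) or control replicate 2 (limma adjusted p = 0.0707), with log2 changes from 0.77 to 0.96 over the 11 fits. It was also lost with an offset of 1 in place of 16 (limma adjusted p = 0.0526). Without the 5 arrays high in pancreatic transcripts the change at 3 h was 0.93 and did not pass the test (limma adjusted p = 0.122). Between 12 h and 3 h it was -1.25, from 1 array at 12 h that is assumed to vary like the other groups, so that its limma adjusted p of 0.164 says little about the call.

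Sox9, a transcription factor of crypt base and progenitor cells, had its highest levels at 3 h, where it did not pass the test. Signals were 162.4, 115.4 and 84.7 in control, 204.5, 165.0, 158.7 and 229.8 at 3 h, and 144.4, 132.5, 126.7 and 132.0 at 12 h. The 3 h arrays lay above all arrays at 12 h, and 1 of them lay just below control replicate 1. The mean was 189.5 ± 33.7 at 3 h (SD, n = 4) against 120.8 ± 39.1 in control (SD, n = 3), a log2 difference of 0.61 ± 0.18 (SE, 95% interval 0.23 to 1.00; limma adjusted p = 0.0997). Leaving out control replicate 1, which was the highest control array and was high in pancreatic transcripts, gave 0.82 and a call (limma adjusted p = 0.0419).

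Between 12 h and 3 h the log2 change of Sox9 was -0.44 ± 0.16 (SE; limma adjusted p = 0.173). The second Sox9 probe set had 136.6, 100.4, 145.5 and 179.8 at 3 h against 142.7, 97.8 and 83.8 in control, which overlap, and gave 0.34 ± 0.20 at 3 h and -0.51 ± 0.19 between 12 h and 3 h (SE). The remaining probe set was below the offset on 11 of 11 arrays.

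**Figure D2:**
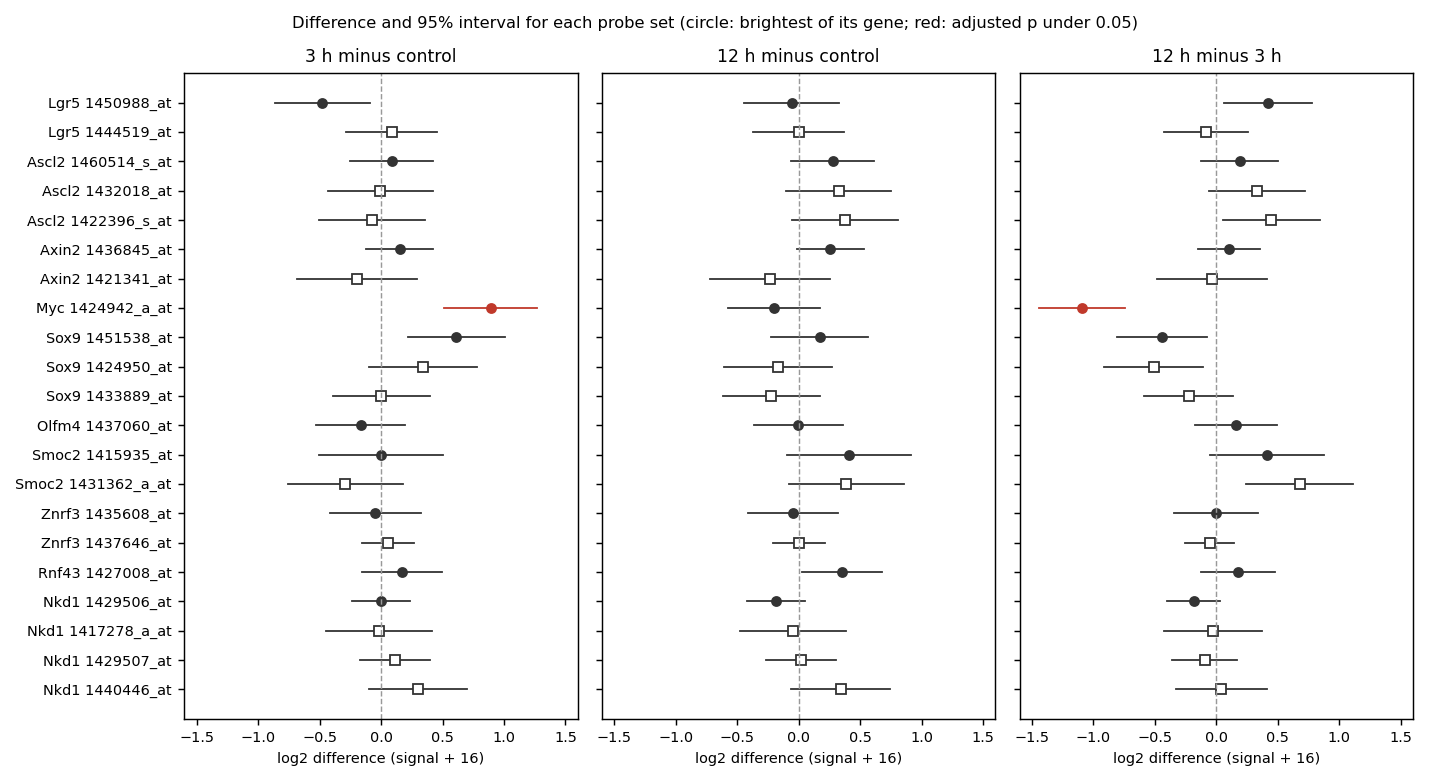
Log2 difference of signal + 16 with its 95% interval for the 21 probe sets in each comparison, circles for the brightest probe set of a gene and squares for the others, red where the adjusted p was under 0.05. Only the Myc probe set is red, at 0.89 for 3 h minus control and at -1.09 for 12 h minus 3 h.

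Among 27 other Wnt target genes that were measured, 3 rose and 2 fell at 3 h. Beside the counts of this and the following lists, 2.54% of all genes were called at 3 h and 1.63% at 12 h against control. Between 12 h and 3 h the share was 4.07%. A single call in such a list describes that gene and not the list. Id2, an inhibitor of helix-loop-helix factors, had signals of 312.4, 333.4, 300.1 and 295.8 at 3 h against 148.2, 160.8 and 166.7 in control. The groups lay far apart, with a log2 difference of 0.90 ± 0.13 (SE; limma adjusted p = 0.00377), and the change at 12 h against 3 h was -0.61 ± 0.12 (SE; limma adjusted p = 0.0147). Both calls held with any 1 array left out. A second probe set of Id2 had a log2 difference of 0.92 at 3 h and another, dim one of 0.03.

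Fosl1, an AP-1 subunit, rose by 1.27 ± 0.21 on the log2 scale at 3 h (SE; limma adjusted p = 0.00881), with signals of 50.2, 54.1, 39.7 and 48.8 at 3 h against 24.3, 8.8 and 2.5 in control. Of the 3 control signals 2 lay below the offset of 16, so the size of the change depends on the offset. Its call missed the threshold without control replicate 2 (limma adjusted p = 0.0503), and in a dimmer probe set the change was 0.75. Ccn4, a secreted matricellular protein named here after its values were seen, rose by 1.00 ± 0.21 (SE), a call lost on leaving out any of 7 arrays (limma adjusted p up to 0.0903).

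The 2 that fell encode receptors of crypt cells. Tnfrsf19, a TNF family receptor that binds in the Lgr5 receptor complex, had signals of 12.2, 13, 12.7 and 10.7 at 3 h against 26.1, 29.7 and 27.5 in control. The 3 h arrays lay below the offset and did not overlap the controls, and the log2 change was -0.64 ± 0.12 (SE; limma adjusted p = 0.0172), against -0.23 and -0.15 for its other probe sets. Lgr4, the R-spondin receptor expressed along the whole crypt and named here after its values were seen, had 1197, 1322, 1261 and 1211 at 3 h against 1966, 1636 and 1796 in control. It fell by 0.52 ± 0.11 on the log2 scale (SE; limma adjusted p = 0.0352), and the arrays did not overlap. The Lgr4 call was lost on leaving out any of 7 arrays (limma adjusted p up to 0.154) and that of Tnfrsf19 on leaving out any of 2 (limma adjusted p up to 0.078). At 12 h Lgr4 had 1133, 1135, 1398 and 1415, again below all 3 controls, and the change of -0.50 ± 0.11 against control (SE; limma adjusted p = 0.0508) was close to that at 3 h and missed the threshold. A second, dim Lgr4 probe set had a log2 difference of 0.16 at 3 h.

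At 12 h against control, 1 of the 27 fell, the AP-1 gene Jun (log2 change -0.60 ± 0.11 SE; limma adjusted p = 0.0234), a call lost on leaving out any of 4 arrays. Tnfrsf19 rose at 12 h against 3 h by 0.44 ± 0.11 (SE; limma adjusted p = 0.0491), which was lost on leaving out any of 10 arrays. The median log2 change of the 27 genes was 0.00 at 3 h, 0.04 at 12 h and 0.01 between them, beside the -0.02, -0.01 and 0.01 of all genes. Among the 27, Lef1, Sp5, Notum, Dkk2, Prox1, Tdgf1 and Wif1 had mean signals below the offset, as did 32.9% of all genes. The offset damps the changes of such dim genes, so these medians say little about them.

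Of 26 measured genes of the core machinery, from Frizzled receptors to nuclear cofactors, 1 fell at 3 h, none passed at 12 h (7 had an unadjusted limma p under 0.05), and 2 rose at 12 h against 3 h. Fzd7, a Frizzled receptor of intestinal stem cells, had 43.5, 62.6, 52.7 and 66.4 at 3 h against 100.9, 137.5 and 88.9 in control. The arrays did not overlap, and it fell by 0.78 ± 0.16 on the log2 scale (SE; limma adjusted p = 0.0255). It rose by 0.63 ± 0.15 at 12 h against 3 h (SE; limma adjusted p = 0.0351). These calls were lost on leaving out any of 5 and 6 arrays, and a dim second probe set had log2 changes of -0.17 and 0.27.

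Pygo2, a nuclear cofactor of beta-catenin, had 209.9, 231.4, 235.7 and 199.3 at 12 h against 133.1, 136.6, 159.2 and 142.9 at 3 h, with 191.3, 164.1 and 197.3 in control. The arrays at 12 h and 3 h did not overlap, and the log2 change of 0.56 ± 0.10 (SE; limma adjusted p = 0.00746) passed with any 1 array left out. Ctnnb1, which encodes beta-catenin itself, is named here as the centre of the pathway and had log2 changes of -0.05 at 3 h and -0.11 at 12 h against control.

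Of 20 measured R-spondin, Wnt and niche genes none passed at 3 h (limma, 4 at an unadjusted p under 0.05). At 12 h 1 fell against control, the secreted Wnt modulator Sfrp2 (log2 change -0.49 ± 0.10 SE; limma adjusted p = 0.0363), a call lost on leaving out any of 8 arrays. Between 12 h and 3 h 1 rose, the ligand gene Rspo3, which stromal cells beneath the crypt secrete. Rspo3 had 113.1, 132.9, 89.9 and 49.4 at 12 h against 36.7, 56.7, 32.0 and 33.8 at 3 h, with 34.8, 50.4 and 45.7 in control. The arrays at 12 h and 3 h overlapped because 12 h replicate 4 lay below 3 h replicate 2, and the change was 0.97 ± 0.23 (SE; limma adjusted p = 0.0351). The call was lost on leaving out any of 6 arrays (limma adjusted p up to 0.0961), and a dim second probe set had a log2 difference of -0.10. Among the 20 genes, Rspo1, Rspo2, Rspo4, Lgr6, Wnt2b, Wnt3, Wnt9a, Dkk1, Foxl1 and Gli1 had mean signals below the offset. Changes of these dim genes could hardly be seen, so the counts of this list speak mainly for its brighter genes.

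**Figure D3:**
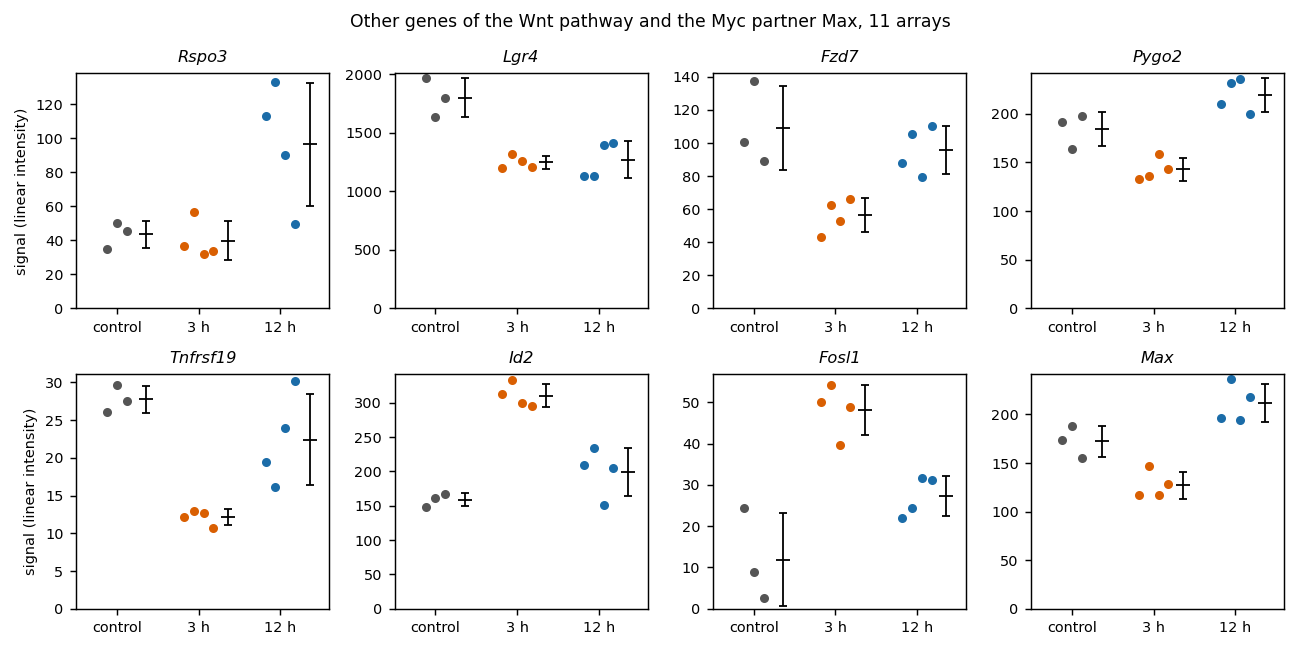
Signal of 7 other genes of the Wnt pathway and of Max, the dimerisation partner of Myc, on the control, 3 h and 12 h arrays, linear intensity from 0. Each gene shown passed the test in some comparison, while most genes of their lists did not. Points are arrays and bars are mean ± SD. Id2 and Fosl1 are highest at 3 h, Lgr4, Fzd7 and Tnfrsf19 are lower at 3 h than in control, as is Lgr4 at 12 h, and Rspo3 is spread from 49.4 to 132.9 at 12 h.

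Of 24 measured further genes of the stem cell signature, 1 rose at 3 h, 1 at 12 h against control and 4 at 12 h against 3 h, and none fell. The shares of all genes called in these comparisons were 2.54%, 1.63% and 4.07%. Car12, a carbonic anhydrase, had 222.1, 224.5, 237.9 and 201.8 at 3 h against 107.3, 121.3 and 130.1 in control. The arrays did not overlap, and the log2 change was 0.81 ± 0.16 (SE; limma adjusted p = 0.0219), lost on leaving out any of 5 arrays. Kcnq1, a potassium channel subunit, rose by 0.68 ± 0.12 at 12 h against control (SE; limma adjusted p = 0.0182) and by 0.50 ± 0.11 against 3 h (SE; limma adjusted p = 0.0251), lost on leaving out any of 3 and 5 arrays.

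The vitamin D receptor gene Vdr, with 1063, 1085, 1235 and 1158 at 12 h against 845.2, 883.5, 853.7 and 745.8 at 3 h, rose by 0.44 ± 0.10 (SE; limma adjusted p = 0.0292). Its control signals of 1205, 1151 and 972.0 lay around those at 12 h and above all at 3 h, where the change against control was -0.41 ± 0.11 (SE; limma adjusted p = 0.0748). Phlda1 and, named after its values were seen, the BMP co-receptor gene Rgmb also rose against 3 h, by 0.61 ± 0.14 and 0.41 ± 0.10 (SE). Rgmb had 207.5 to 232.4 in control, a range that the arrays at 12 h overlapped and those at 3 h lay below. The calls of these 3 were lost on leaving out any of 7, 9 and 9 arrays.

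Of 25 measured Myc target genes of ribosome production and growth, 3 rose at 3 h and none fell. Rrs1, a ribosome assembly factor, had 363.2, 332.2, 281.1 and 387.3 at 3 h against 133.1, 172.8 and 184.0 in control. The arrays did not overlap, and it rose by 1.00 ± 0.17 on the log2 scale (SE; limma adjusted p = 0.0113), a call lost without control replicate 1 (limma adjusted p = 0.0613). The polyamine enzyme gene Odc1 rose by 0.44 ± 0.10 (SE; limma adjusted p = 0.0352), and Gnl3, a nucleolar GTPase gene, by 0.49 ± 0.11 (SE; limma adjusted p = 0.0367), calls lost on leaving out any of 6 and 7 arrays.

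The median log2 change of the 25 genes was 0.14 at 3 h, beside -0.02 over all genes, and 18 of them were above 0. At 12 h against control none passed (limma, 6 at an unadjusted p under 0.05) and the median was 0.07. Between 12 h and 3 h the ribonucleoprotein gene Nop58 fell by 0.59 ± 0.14 on the log2 scale (SE; limma adjusted p = 0.0372), lost on leaving out any of 7 arrays. Rrs1 itself was at 347.7, 317.1, 280.7 and 209.8 at 12 h against 363.2, 332.2, 281.1 and 387.3 at 3 h, which overlap. Its change of -0.24 ± 0.16 (SE) between these times did not pass the test. Against control the log2 change of Rrs1 at 12 h was 0.75 ± 0.17 (SE; limma adjusted p = 0.0508). The arrays did not overlap there, and the change missed the threshold.

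Of 13 genes of the Myc network, 1 passed, Max, the obligate dimerisation partner of Myc. The median log2 change of the 13 was -0.14 at 3 h and -0.07 at 12 h against control, and 0.08 between the times. Of the 13, 3, 5 and 10 were above 0 in these comparisons. Max had 196.5, 236.0, 194.8 and 218.3 at 12 h against 117.0, 146.7, 117.3 and 128.2 at 3 h, with 173.9, 187.8 and 155.7 in control. The 3 h arrays lay below all others, and the change between 12 h and 3 h was 0.67 ± 0.10 (SE; limma adjusted p = 0.00394), which passed with any 1 array left out. Max was higher at 12 h than at 3 h on the same arrays on which Myc was lower.

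Without the 5 arrays high in pancreatic transcripts, the 3 h changes of Id2, Fosl1 and Rrs1 were 0.87, 1.65 and 0.95 on the log2 scale and passed the test (limma adjusted p = 0.0427, 0.0127 and 0.0381). The other calls named in the Wnt, stem cell and Myc lists kept their sign and did not pass. Between 12 h and 3 h the change was 0.69 for Pygo2 and 0.79 for Max, both larger than with all arrays. With 1 array left at 12 h, whose spread is taken from the other groups, a missed threshold there says little about these calls.

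Of 28 measured genes of G2 and mitosis, 2 fell at 3 h and 7 at 12 h against control, none rose, and the median log2 changes were -0.51 and -0.73. At 12 h the proliferation marker Mki67 had 333.5, 237.3, 267.5 and 191.7 against 483.0, 629.5 and 471.0 in control. These did not overlap, and it fell by 1.01 ± 0.20 on the log2 scale (SE; limma adjusted p = 0.029), a call lost on leaving out any of 4 arrays. Bub1b and Hmmr, genes of the mitotic spindle, fell at both times. Their calls were lost on leaving out any of 5 and 6 arrays at 3 h, and any of 4 and 4 at 12 h. Of 23 measured S phase genes none passed in any comparison (limma), with 2, 5 and 2 at an unadjusted p under 0.05.

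**Figure D4:**
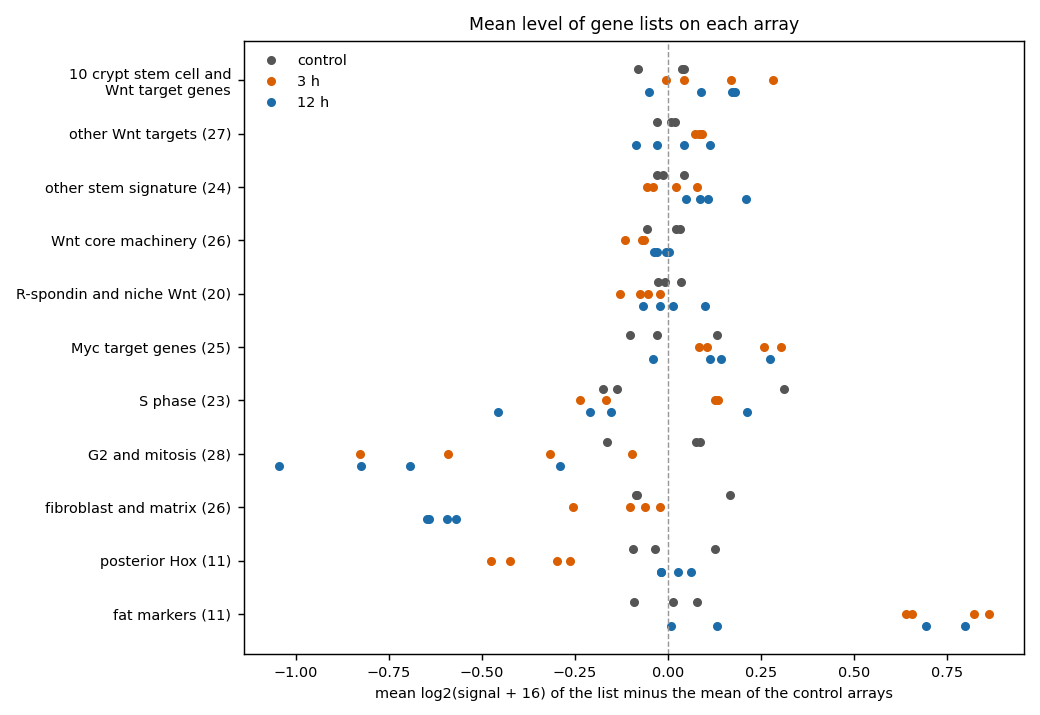
Mean log2(signal + 16) of each gene list on each array minus the mean of the control arrays, with the number of measured genes in brackets. The 10 crypt stem cell and Wnt target genes lie between -0.08 and 0.28 on every array, while the G2 and mitosis genes are below every control array on 3 of 4 arrays at 3 h and 4 of 4 at 12 h, the posterior Hox genes are lower at 3 h and the fat markers higher at 3 h.

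Markers of colon region and of other tissues differed between the groups. Posterior Hox genes, whose expression is strongest in distal colon, had summed signals over 11 genes of 1013 to 1385 at 3 h against 1842 to 2365 in control, and 1804 to 2108 at 12 h. Of these 11, 4 fell at 3 h, none passed at 12 h against control (limma, 0 at an unadjusted p under 0.05), and 4 rose at 12 h against 3 h. Markers of proximal colon, among them anterior Hox genes, had summed signals over 11 measured genes of 300.8 to 400.7 in control, 424.4 to 693.6 at 3 h and 443.8 to 677.0 at 12 h. Of these 2 rose at 3 h and 3 at 12 h against control, and the sums were above control at both times. The median log2 change was 0.09 at both times, with 7 and 6 of the 11 above 0, so the list did not rise as a whole. Much of the difference in the sums came from Osr2, with means of 27.5 in control, 150.4 at 3 h and 179.1 at 12 h. The transcription factor gene Osr2 rose by 2.14 ± 0.42 at 3 h (SE; limma adjusted p = 0.0203) and by 2.40 ± 0.42 at 12 h (SE; limma adjusted p = 0.0182), calls lost on leaving out any of 4 and 3 arrays. Without the 5 arrays high in pancreatic transcripts its changes were 1.45 and 1.62. Of 10 general epithelial genes, 1 passed at 3 h, Cdx2, a transcription factor of intestinal identity, which rose by 0.75 ± 0.10 (SE; limma adjusted p = 0.00241). The list had a median log2 change of -0.06 at 3 h, with 2 of the 10 above 0.

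Fat markers had summed signals over 11 genes of 4911 to 6343 at 3 h against 2561 to 2851 in control, with 3 of 11 rising, and 2586 to 5715 at 12 h. The adipocyte hormone gene Adipoq was between 137.8 and 655.8 on the 11 arrays.

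Fibroblast and matrix markers, a source of R-spondin and Sfrp transcripts, had summed signals over 26 genes of 15506 to 15817 at 12 h against 20920 to 26956 in control, and 12 of 26 fell. At 3 h they summed to 20157 to 23296 and none was called (limma, 1 at an unadjusted p under 0.05). Smooth muscle markers had summed signals over 14 genes of 22593, 24310, 26008 and 35666 at 12 h against 32362 to 37641 in control, with none called (limma, 8 at an unadjusted p under 0.05) and a median log2 change of -0.46. At 12 h against 3 h their median was -0.54 and 2 of 14 fell, Des and Actg2. Of 24 absorptive colonocyte markers 4 rose at 3 h and 4 at 12 h against control. The part of these markers in the results above was not tested.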

How the data were processed

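Per the labels' protocols, colon RNA was extracted with Trizol and labelled with biotin, and the probe sets are those of an Affymetrix mouse expression array. Each deposited value is the intensity of a probe set on a linear scale, and the summary software is not given in the sources used here. On every array the mean signal after trimming 2% at each end was 100, and the deposited signals were neither log transformed nor quantile normalized. Dim probe sets below the offset carry little information.

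Symbols came from the platform annotation, updated by Entrez number to RefSeq GRCm38.p6, which held 99.1% of these numbers. Controls left out, 34945 probe sets had 1 symbol, 932 several and 9160 none. The probe set with the highest mean log2 level over the 11 arrays stood for its gene. Outside the members, other probe sets are described only for Id2, Fosl1, Tnfrsf19, Lgr4, Fzd7 and Rspo3. Further probe sets of Rrs1, Car12, Odc1, Rgmb and other named genes are not described here. Signals were taken as log2(signal + 16), so a fold change understates the change of dim genes. limma 3.58.1 in R 4.3.3 was fitted to all 11 arrays with no covariate, once over 18193 genes and once over 45037 probe sets. Tests were 2-sided, with Benjamini-Hochberg adjustment over all of them, calls at an adjusted p under 0.05 and 95% intervals. The procedure was tested on simulated data.

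The 10 genes and all other lists were chosen with earlier results of these data known. All members and probe sets are named. From the other Wnt, stem cell, Myc and mitosis lists up to 4 called genes with the smallest p are named. Ccn4, Lgr4, Rgmb and the uncalled Ctnnb1 are named beyond this rule. The lists of region and tissue markers are described mainly by counts and summed signals. Alternatives were offsets of 1 and 64, a minimum mean signal of 50, median and quantile scaling, other probe set rules, array weights, another variance prior, only the 2 groups compared, a replicate block and leaving out each array. The fit without 5 arrays rich in pancreatic transcripts was chosen after seeing the data. Promoter regions were searched with Python 3.11.15, and figures were drawn with matplotlib 3.10.9.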

Additional observations from a re-analysis of the deposited data

Results flagged for a closer look

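Lgr5 on 12 h replicate 4 had a signal of 35.8, far from the 59.6 to 64.2 of the other 3 arrays at 12 h. On the log2(signal + 16) scale the gap was 0.865 of the range of the 4 arrays, above Dixon's 95% critical value. It was the 1 group marked among 42 groups of 4 arrays, where chance marks about 1 in 20. Myc differed between the 2 times after imatinib, with a log2 change of -1.09 at 12 h against 3 h, tested directly (limma adjusted p = 0.00265).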

How the results depend on the processing

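The count of members called at 3 h, 1 in the text, was 0 with an offset of 1, with the replicate number as a block and without the arrays high in pancreatic transcripts, and 2 (Myc and Sox9, limma adjusted p = 0.0488 for Sox9) among genes with a mean signal of at least 50. It was 0 to 1 when single arrays were left out. The count of probe sets at 3 h was 0 under the same first 3 settings, and 0 to 1 with single arrays left out. Between 12 h and 3 h the members called were 0 without the arrays high in pancreatic transcripts, which leaves 1 array at 12 h with its spread taken from the other groups, and 1 to 3 with single arrays left out, and the probe sets called were 0 without those arrays and 2 with the signal minimum. The Myc change at 3 h was 0.99 with an offset of 1 (limma adjusted p = 0.0526) and 0.88 with the replicate block (limma adjusted p = 0.0609). Same-numbered arrays deviated together with correlations of -0.21 to 0.31, and not every pair was above 0.1, so the numbers were not taken to pair the samples. Calls over all genes ranged from 80 to 694 at 3 h, 8 to 626 at 12 h and 16 to 1078 between them.

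Signs turned only for uncalled members, under the settings given next. With the dimmest probe set of each gene, log2 changes were 0.0856 for Lgr5, -0.072 for Ascl2, -0.20 for Axin2, 0.056 for Znrf3 and 0.30 for Nkd1 at 3 h. They were 0.000901 for Lgr5, -0.23 for Axin2, -0.22 for Sox9, 0.000309 for Znrf3 and 0.34 for Nkd1 at 12 h against control; -0.0847 for Lgr5, -0.0371 for Axin2 and 0.0398 for Nkd1 between the times. With the mean of all probe sets of a gene they were -0.0221 for Axin2, 0.0053 for Znrf3 and 0.098 for Nkd1 at 3 h, and -0.0755 for Sox9 and 0.0311 for Nkd1 at 12 h against control. With equal array medians they were 0.0134 for Smoc2 and 0.014 for Nkd1 at 3 h, 0.000237 for Lgr5, 0.0544 for Olfm4 and 0.00999 for Znrf3 at 12 h against control, and 0.0403 for Znrf3 between the times. With array weights they were 0.00442 for Smoc2 and 0.0104 for Nkd1 at 3 h, 0.00783 for Olfm4 at 12 h against control, and 0.0403 for Znrf3 between the times. With quantile scaling they were 0.0135 for Smoc2 and 0.0195 for Nkd1 at 3 h. With an offset of 64 they were 0.00167 for Olfm4 at 12 h against control, and 0.00188 for Znrf3 between the times. With the replicate block they were 0.11 for Smoc2 and 0.0312 for Nkd1 at 3 h, and 0.0409 for Olfm4 at 12 h against control. Without the arrays high in pancreatic transcripts they were 0.11 for Lgr5, 0.0602 for Olfm4 and 0.29 for Znrf3 at 12 h against control, and 0.30 for Znrf3 between the times. With single arrays left out they ranged over -0.17 to 0.13 for Smoc2, -0.14 to 0.0107 for Znrf3 and -0.0529 to 0.0883 for Nkd1 at 3 h. The ranges were -0.14 to 0.0916 for Lgr5, -0.0319 to 0.38 for Sox9, -0.15 to 0.13 for Olfm4 and -0.16 to 0.0442 for Znrf3 at 12 h against control, and -0.11 to 0.0978 for Znrf3 between the times. The cause of these turns was not tested. Signals near background limit Olfm4 and the dim second probe sets.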
